A study of Mus musculus with 14 samples.

Results

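Nephron progenitor genes are a set of 9 genes, Six2, Osr1, Eya1, Meox1, Crym, Itga8, Sall1, Cited1 and Meis3, known for their expression in the stem-like cells from which every nephron of the kidney is built. They were found by symbol in the table of estimated read counts per gene, where all 9 were present among 55487 genes. The libraries came from mouse embryonic kidneys at E13.5, an age counted in days after conception, in which cells of the ureteric bud were sorted by GFP. The GFP is carried by the Hoxb7-Cre transgene, which is active in the ureteric bud lineage. Cells sorted for GFP are thus expected to carry both the Cre and the GFP in all groups. Whether every sorted cell did was not measured. Of 14 bulk RNA-seq libraries, 5 were labelled Cep120 KO (replicates 2, 4, 5, 6 and 7), 3 were controls of the Cep120 line, 3 were labelled Pkd1 KO and 3 were controls of the Pkd1 line. The Cep120 protein takes part in making centrioles, the core of the centrosome, and the product of Pkd1, polycystin-1, is a membrane protein of kidney tubules. The genotype label of every control is WT, while the titles of the same libraries mark them as heterozygous. The question named for the series is which pathways change in the ureteric bud when centrosomes are lost. The labels do not state what a replicate is (an embryo, a litter or a pool). The p-values below therefore rest on the spread between libraries, part of which may be technical.

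The embryonic kidney forms from an epithelial outgrowth, the ureteric bud, and from the mesenchyme around it. Mesenchymal cells that gather over each bud tip, the cap mesenchyme, are the nephron progenitors: they renew themselves under the control of Six2 and its partners, release GDNF to the Ret receptor of the bud, and turn into nephron epithelium when the bud sends Wnt9b. The bud itself becomes the collecting ducts, and nephron progenitors lie outside the Hoxb7-Cre lineage. In a bulk library, fewer cells of a type and less RNA per cell cannot be told apart.

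Depth was between 11347657 and 27967596 counts per library, both extremes being Pkd1 KO libraries. Levels are given as CPM, the counts of a gene relative to the whole library after scaling between libraries by edgeR's TMM factors. A gene with 0 reads could have a level of up to 3 counts, which is 0.0955 to 0.278 CPM depending on the library; this limit covers counting error only. Transcripts of Cep120 did not fall where Cep120 KO is the label: the gene read 6.41 to 10.6 CPM in the 3 controls and 7.87, 19.5, 21.2, 13.1 and 16.5 CPM in libraries 2, 4, 5, 6 and 7, which are therefore called by their label only. Pkd1 lay between 2.39 and 2.68 CPM in the Pkd1 KO libraries, below all 3 of their controls at 3.34 to 4.6 CPM. The summed level of 13 ureteric bud markers was 3433 to 4005 CPM in 12 of the libraries, but 1356 CPM in library 6 labelled Cep120 KO and 1951 CPM in library 7. The epithelial cadherin Cdh1, one of these markers, read 20.2 and 61.9 CPM in libraries 6 and 7, against 105 to 338 CPM elsewhere. Libraries 6 and 7 were singled out after their values were seen, and no test was made between them and the rest. Replicates labelled Cep120 KO also differed in how alike they were. The chi-square per gene between the counts of a pair was 4.55 for libraries 4 and 5, the most alike of all pairs within a group. It was 31.5 for libraries 6 and 7, and 178 to 415 between library 2 and each of the other 4. Between libraries 4 or 5 and libraries 6 or 7 it was 220 to 258. The labels do not say whether libraries 4 and 5, or 6 and 7, share a source, so the n of 5 may count fewer than 5 independent samples.

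The promoters of Six2 and Cited1 are shown because these members behaved most differently in the data below, and because a motif bound by MEIS factors, the family of member Meis3, was found in both. RefSeq promoter entries (build GRCm38.p6) matched 5 of the 9 members, Six2, Itga8, Meis3, Sall1 and Cited1, with 9 entries in all. Each sequence is the 250 bases before the RefSeq start, written 5′ to 3′ on the strand of the gene. Capitals mark the letters TGACAG or their reverse complement CTGTCA. The Six2 window is chr17:85688255-85688504 on the minus strand, and the Cited1 window is chrX:102252182-102252431, also on the minus strand. The end of the Six2 window overlaps the start of Six2 as GENCODE M21 annotates it.
Six2 promoter: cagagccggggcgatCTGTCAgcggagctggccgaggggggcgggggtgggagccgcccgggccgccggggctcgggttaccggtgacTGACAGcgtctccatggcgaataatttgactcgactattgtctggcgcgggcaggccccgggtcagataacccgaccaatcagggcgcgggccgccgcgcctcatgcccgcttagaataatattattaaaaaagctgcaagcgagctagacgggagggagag
Cited1 promoter: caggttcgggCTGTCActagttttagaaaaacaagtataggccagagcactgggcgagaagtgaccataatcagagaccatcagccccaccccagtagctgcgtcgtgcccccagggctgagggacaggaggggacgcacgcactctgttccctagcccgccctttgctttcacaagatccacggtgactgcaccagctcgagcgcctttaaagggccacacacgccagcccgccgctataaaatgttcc
The Six2 window held 2 matches, 1 on each strand, and the Cited1 window held 1. The same letters, searched on both strands, occurred in 15.9% of all 32851 promoter windows of that length, so a match is common. A Six2-type site written TCAGGTTNC (1.07% of windows) and a TCF/LEF site written CTTTGAT (3.21% of windows) were in none of the 9 member windows. The motifs do not overlap each other in the windows shown. These are matches of letters and say nothing of binding.

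Across the 9 genes, 8 were low in 12 libraries and high in libraries 6 and 7 labelled Cep120 KO. In each of those 8 genes, both libraries read more than 10 times the highest of the other 12, a pattern that 0.462% of the 16876 genes tested had. Cited1 was the exception, at 20.5 to 55.5 CPM in all 14 libraries. Both libraries lay above the other 12 in 8 of 9 members, against 22.4% of all genes tested. Libraries 6 and 7 were singled out after their values were seen, and the members were chosen with earlier results of these data known. These shares are therefore a description and not a test. Against the 3 controls, with all 5 libraries labelled Cep120 KO, 2 of 9 members, Six2 and Meis3, were called higher at an adjusted p under 0.05 (edgeR quasi-likelihood test, Benjamini-Hochberg over 16876 genes). In that comparison 8.4% of all genes were called higher. Other fits called 6 members with no low-count filter (7.15% of all genes called), 7 with DESeq2 (24.9%), 7 without libraries 4 and 5 (12%), 2 lower with limma-voom (39.5%) and 0 in a separate fit of the 8 libraries (0%). At an unadjusted p under 0.05 there were 8 of 9 members, all but Cited1, against 33.7% of all genes tested. The median log2 fold change was 5.38 over the members and 0.12 over all genes tested, and with libraries 6 and 7 left out the members' median was 0.04.

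**Figure D1:**
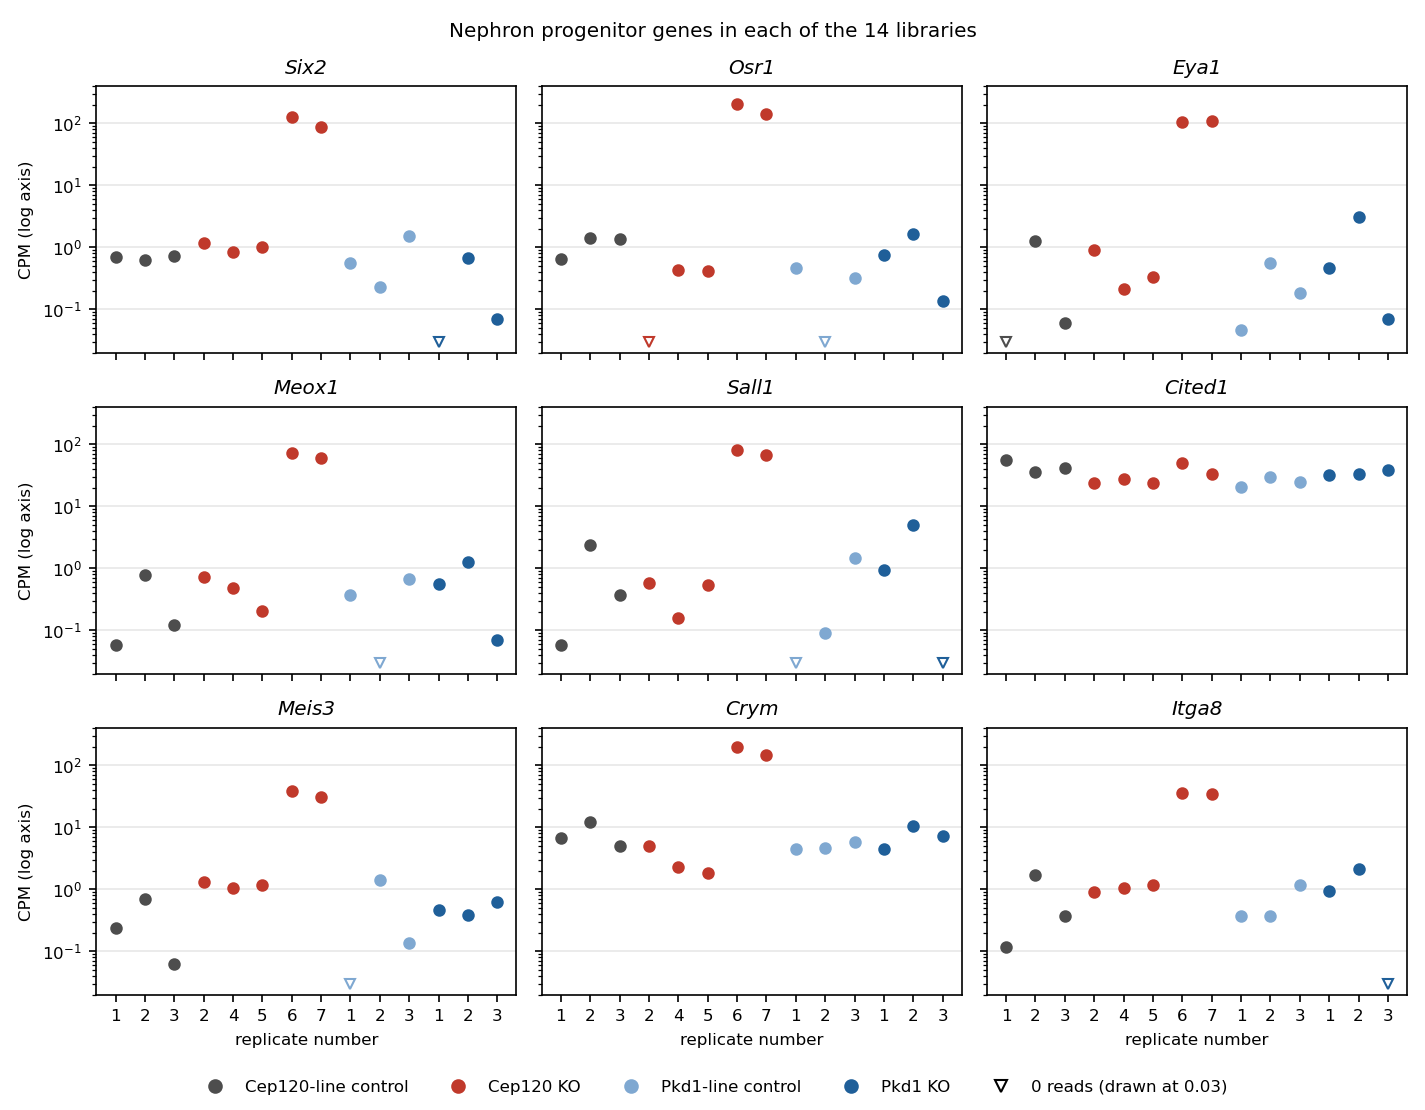
CPM (log axis) of each of the 9 nephron progenitor genes in each of the 14 libraries, by replicate number, with 1 point per library coloured by group and open triangles for 0 reads. In 8 of the 9 panels libraries 6 and 7 stand above all 12 others, and Cited1 lies between 20.5 and 55.5 CPM in all 14.

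Six2 (ENSMUSG00000024134, chr17:85684277-85688274, minus strand, GRCm38) encodes the homeodomain factor that keeps nephron progenitors undifferentiated. It read 0.705, 0.616 and 0.737 CPM in controls 1, 2 and 3 of the Cep120 line. In the libraries labelled Cep120 KO it read 1.18 CPM in library 2, 0.853 in library 4, 1.03 in library 5, 127 in library 6 and 86.1 in library 7. All 5 thus lay above the 3 controls, but libraries 2, 4 and 5 by less than 1 CPM. Behind these values stand 12 to 15 reads in each control, 16 to 25 reads in libraries 2, 4 and 5, and 3549 and 2705 reads in libraries 6 and 7. The fitted log2 fold change was 5.98 ± 1.82 (SE, n = 5 and 3), with an edgeR adjusted p of 0.044. A gene of few reads in most libraries passed that test because of 2 libraries: without libraries 6 and 7 the log2 fold change of Six2 was 0.57 and the edgeR adjusted p 0.73. The call was also lost on leaving out library 6 or 7 singly (edgeR adjusted p 0.076 and 0.077) or control 1, 2 or 3 (0.137, 0.130 and 0.128). Those fits called few genes of any kind among 16876, so the loss was not particular to Six2. They called 1 higher and 1 lower without library 6, and 5 higher and 3 lower without library 7. Without control 1, 2 or 3 they called 1, 4 and 1 higher and 1, 3 and 2 lower. Nor did Six2 pass in a separate fit of the 8 libraries (adjusted p 0.144), where no gene did, or with limma-voom and quality weights, which gave a log2 fold change of 0.79 (adjusted p 0.53). In the Pkd1 line, Six2 read 0.563, 0.229 and 1.53 CPM in the controls and 0, 0.684 and 0.0691 CPM in the KO libraries, so that Pkd1-line control 3 exceeded libraries 2, 4 and 5 labelled Cep120 KO.

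Meis3 (chr7:16175090-16186504, plus strand), a homeobox gene of the MEIS family, was the other member called. Its levels were 0.235, 0.698 and 0.0614 CPM in the 3 controls of the Cep120 line. The libraries labelled Cep120 KO held 1.31, 1.07, 1.19, 39.0 and 31.4 CPM in libraries 2, 4, 5, 6 and 7. Here too the groups did not overlap, which held for 2 of 9 members and for 6.41% of all genes tested. The log2 fold change was 5.38 ± 1.61 (SE) with an edgeR adjusted p of 0.042. With libraries 6 and 7 left out it was 1.78 with an edgeR adjusted p of 0.34. Leaving out library 6 or 7 alone gave edgeR adjusted p-values of 0.074 and 0.077, and leaving out control 1, 2 or 3 gave 0.137, 0.099 and 0.131. These are the fits given for Six2, which called few genes of any kind. Pkd1-line libraries spanned 0 to 1.42 CPM in controls and 0.380 to 0.622 CPM in KO, and the 1.42 CPM of control 2 is above libraries 2, 4 and 5 labelled Cep120 KO.

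Osr1 (chr12:9570116-9581500, plus strand), a zinc-finger factor that marks the mesenchyme from which nephron progenitors arise, read higher in library 6 than any other member in CPM, with Crym close behind. It stood at 0.646, 1.44 and 1.35 CPM in the controls, and at 0, 0.427, 0.411, 203 and 143 CPM in libraries 2, 4, 5, 6 and 7 labelled Cep120 KO. Libraries 2, 4 and 5 were all below the 3 controls, and library 2 held 0 reads. The log2 fold change over all 5 was 5.90 ± 2.13 (SE) with an edgeR adjusted p of 0.072, and without libraries 6 and 7 the sign turned, to -1.97 with an edgeR adjusted p of 0.29. Levels in the Pkd1 line were 0.469, 0 and 0.316 CPM in controls and 0.740, 1.67 and 0.138 CPM in KO libraries.

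Eya1 (chr1:14168954-14310235, minus strand) encodes a phosphatase and coactivator that works with Six2 in progenitor cells. It had 0, 1.27 and 0.0614 CPM in the controls and 0.918, 0.213, 0.328, 106 and 108 CPM in libraries 2, 4, 5, 6 and 7 labelled Cep120 KO. Control 2 was above libraries 2, 4 and 5, so the groups overlapped. Eya1 was the only member higher in library 7 than in library 6; the other 8 were higher in library 6. Its log2 fold change, 6.44 ± 2.21 (SE), had an edgeR adjusted p of 0.062. It was 0.04 when libraries 6 and 7 were left out, with an edgeR adjusted p of 0.99. In the Pkd1 line the highest value, 3.04 CPM, was in KO library 2, while the other 5 libraries lay between 0.0469 and 0.549 CPM.

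Sall1 (chr8:89027235-89044162, minus strand), a zinc-finger repressor needed for the kidney mesenchyme to attract the bud, read 0.0587, 2.38 and 0.368 CPM in the controls. Libraries 2, 4, 5, 6 and 7 labelled Cep120 KO read 0.590, 0.160, 0.534, 81.6 and 66.4 CPM. Only libraries 6 and 7 exceeded control 2. The log2 fold change was 4.92 ± 2.11 (SE) with an edgeR adjusted p of 0.119, turning to -1.15 with an edgeR adjusted p of 0.68 without libraries 6 and 7. The Pkd1-line values were 0, 0.0915 and 1.49 CPM in controls and 0.925, 4.94 and 0 CPM in KO libraries.

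Meox1 (chr11:101877510-101894374, minus strand), a homeobox gene of paraxial and kidney mesenchyme, had 0.0587, 0.780 and 0.123 CPM in the controls and 0.721, 0.480, 0.205, 73.4 and 60.3 CPM in libraries 2, 4, 5, 6 and 7 labelled Cep120 KO. Control 2 was again above libraries 2, 4 and 5. At a log2 fold change of 6.25 ± 2.03 (SE) the edgeR adjusted p was 0.053, just above the threshold. It fell under the threshold on leaving out library 2 (0.019), library 4 (0.048) or library 5 (0.049). Of 16876 genes, the fit without library 2 called 3229 higher and 2494 lower. The fit without library 4 called 990 higher and 547 lower, and that without library 5 called 856 and 435. Leaving out libraries 6 and 7, the log2 fold change was 0.47 and the edgeR adjusted p 0.85. The 6 Pkd1-line libraries held between 0 and 1.25 CPM.

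Crym (chr7:120186380-120202111, minus strand), which encodes the thyroid-hormone-binding mu-crystallin, was detectable in every library. It read 6.70, 12.2 and 4.97 CPM in the controls and 4.92, 2.29, 1.81, 201 and 147 CPM in libraries 2, 4, 5, 6 and 7 labelled Cep120 KO. Libraries 2, 4 and 5 were below all 3 controls and libraries 6 and 7 far above them. The log2 fold change over all 5 was 3.16 ± 1.34 (SE) with an edgeR adjusted p of 0.116. Without libraries 6 and 7 it was -1.43, with an edgeR adjusted p of 0.065. The Pkd1-line libraries held 4.41 to 5.78 CPM in controls and 4.44, 10.4 and 7.19 CPM in KO.

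Itga8 (chr2:12106632-12301922, minus strand) encodes the alpha chain of the integrin through which the mesenchyme binds nephronectin on the bud. It had 0.117, 1.68 and 0.368 CPM in the controls and 0.918, 1.07, 1.19, 35.3 and 33.9 CPM in libraries 2, 4, 5, 6 and 7 labelled Cep120 KO, with control 2 above libraries 2, 4 and 5. Its log2 fold change was 4.26 ± 1.54 (SE) with an edgeR adjusted p of 0.072. On leaving out both libraries 6 and 7 it was 0.51 with an edgeR adjusted p of 0.80. An antisense gene, E030013I19Rik, overlaps the start of Itga8 and held up to 230 reads (library 6); the cDNA kit does not mark strand, so reads of the pair cannot be told apart where they overlap. The partners of Itga8 are bud genes or shared ones and did not pass the test: Npnt, the gene of nephronectin, had a log2 fold change of 0.33 (edgeR adjusted p 0.45) and Itgb1, the beta chain, 0.32 (edgeR adjusted p 0.27). Both partners were chosen after their values were seen.

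Cited1 (chrX:102247381-102252181, minus strand), a transcriptional coregulator that marks the least differentiated cap cells, was expressed in every library. It read 55.5, 35.4 and 41.5 CPM in controls 1, 2 and 3 of the Cep120 line, 23.5, 28.1 and 23.9 CPM in libraries 2, 4 and 5 labelled Cep120 KO, and 50.8 and 33.2 CPM in libraries 6 and 7. Libraries 2, 4, 5 and 7 were below all 3 controls, while library 6 was between control 1 and control 3. The log2 fold change was -0.47 ± 0.25 (SE) with an edgeR adjusted p of 0.205. In the same comparison limma-voom with quality weights called Cited1 lower (-0.68, adjusted p 0.004), as it called 39.5% of all genes tested in either direction. Without libraries 6 and 7 it was -0.81 with an edgeR adjusted p of 0.042, which made Cited1 the only member of 9 called in that fit, where 5.48% of all genes tested were called. The values of libraries 2, 4 and 5 also lie within the 20.5 to 29.4 CPM of the Pkd1-line controls. The order depends on the scale: in TPM (the authors' values per transcript length and library, with no TMM scaling) Cited1 read 62.6, 41.5 and 49.4 in the controls and 29.7, 52.5, 44.7, 99 and 68.6 in libraries 2, 4, 5, 6 and 7. On that scale libraries 4 and 5 lay among the controls and libraries 6 and 7 above all other 12.

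**Figure D2:**
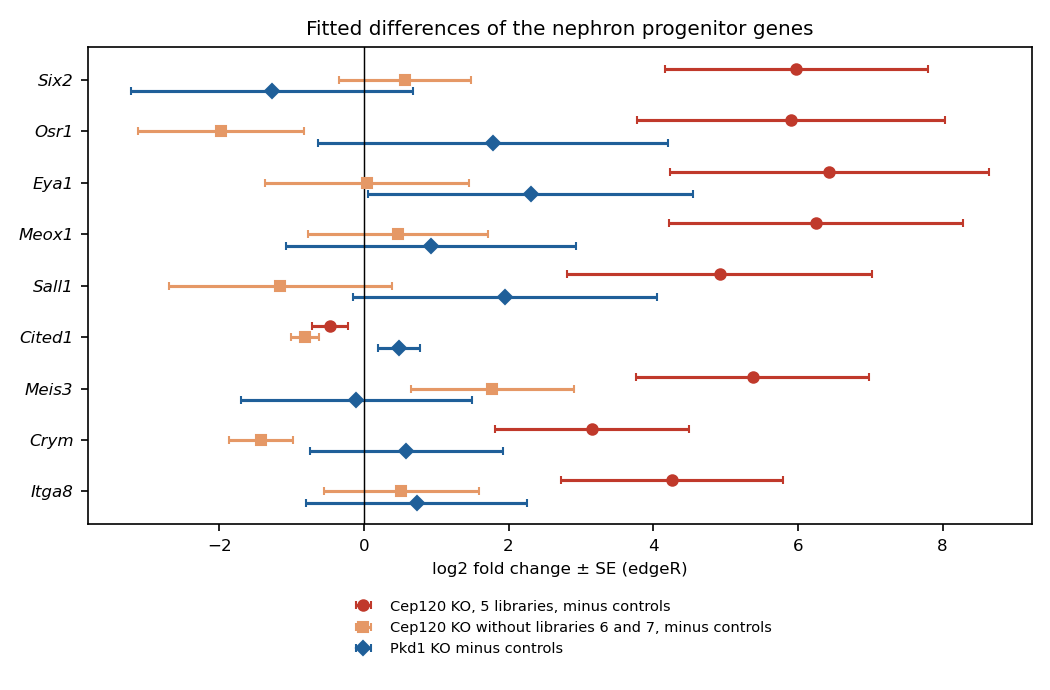
Fitted log2 fold change with SE (edgeR) of each nephron progenitor gene, for all 5 libraries labelled Cep120 KO against their 3 controls (circles), for the same comparison without libraries 6 and 7 (squares), and for Pkd1 KO against its controls (diamonds). For Osr1, Sall1 and Crym the squares are on the other side of 0 from the circles, at -1.97, -1.15 and -1.43, and for Cited1 both are below 0.

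In the Pkd1 line no member was called: 0 of 9 at an edgeR adjusted p under 0.05 and 0 of 9 at an unadjusted p under 0.05. The background was as low, with 0% of the 16876 genes called by edgeR, 259 at an unadjusted p under 0.05, 3 genes called by DESeq2 and 1 by limma-voom. Members' log2 fold changes ran from -1.27 for Six2 to 2.30 for Eya1, with a median of 0.73. The positive values rest largely on KO library 2, which was the highest of the 12 libraries other than Cep120 KO 6 and 7 in 5 of 9 members (Osr1, Eya1, Meox1, Itga8 and Sall1). Without that library the log2 fold change was -0.08 for Eya1, -0.27 for Meox1, -0.56 for Itga8 and -0.31 for Sall1, while it stayed above 0 for Osr1 (0.65), Crym (0.24) and Cited1 (0.52). Cited1 read 20.5, 29.4 and 25.0 CPM in controls and 32.4, 33.4 and 39.1 CPM in KO libraries, each KO library above each control; its log2 fold change of 0.49 ± 0.28 (SE) had an edgeR adjusted p of 1. Complete separation in that direction was found for 4.88% of all genes tested.

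The difference between the Cep120 and Pkd1 effects was tested as an interaction over all 14 libraries. No member passed, with 0 of 9 at an edgeR adjusted p under 0.05, and 0% of all genes tested passed as well. At an unadjusted p under 0.05 there were 3 members, against 20.4% of all genes tested. They were Six2, with a log2 difference of 7.25 ± 2.56 (SE, edgeR adjusted p 0.178), Meis3 with 5.48 ± 2.19 (SE, edgeR adjusted p 0.201) and Cited1 with -0.95 ± 0.38 (SE, edgeR adjusted p 0.200). DESeq2 called 1 member, Six2 (adjusted p 0.035), and 4.28% of all genes. Limma-voom with quality weights called 2 members, Crym (-2.24, adjusted p 0.048) and Cited1 (-1.11, adjusted p 0.003), both lower, and 26% of all genes. Without library 2 labelled Cep120 KO, edgeR also called Six2 (adjusted p 0.046), in a fit that called 18.5% of all genes.

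Levels can be compared between genes only per length, for which the deposited TPM values served. In library 6 the order was Crym at 236 TPM, Osr1 at 170, Six2 at 109, Cited1 at 99, Meox1 at 50.3, Eya1 at 47.3, Meis3 at 36.2, Sall1 at 22.9 and Itga8 at 21.4. Library 7 had the same order but for Eya1 (54.3 TPM), which was above Meox1 (44.0 TPM). In this order Six2 and Cited1 (75.8 and 68.6 TPM in library 7), Meox1 and Eya1, and Sall1 and Itga8 (19.9 and 19.6 TPM in library 7) are neighbours whose ranges over the pair of libraries overlap. In the 3 controls of the Cep120 line the order was another one: Cited1 was at 51.1 ± 10.7 TPM (SD, n = 3) and Crym at 5.51 ± 2.59 TPM, and each of the other 7 members was at 1.02 TPM or below in every control. In the 12 libraries other than 6 and 7, Crym had a median of 3.76 TPM and Cited1 one of 42.4 TPM.

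**Figure D3:**
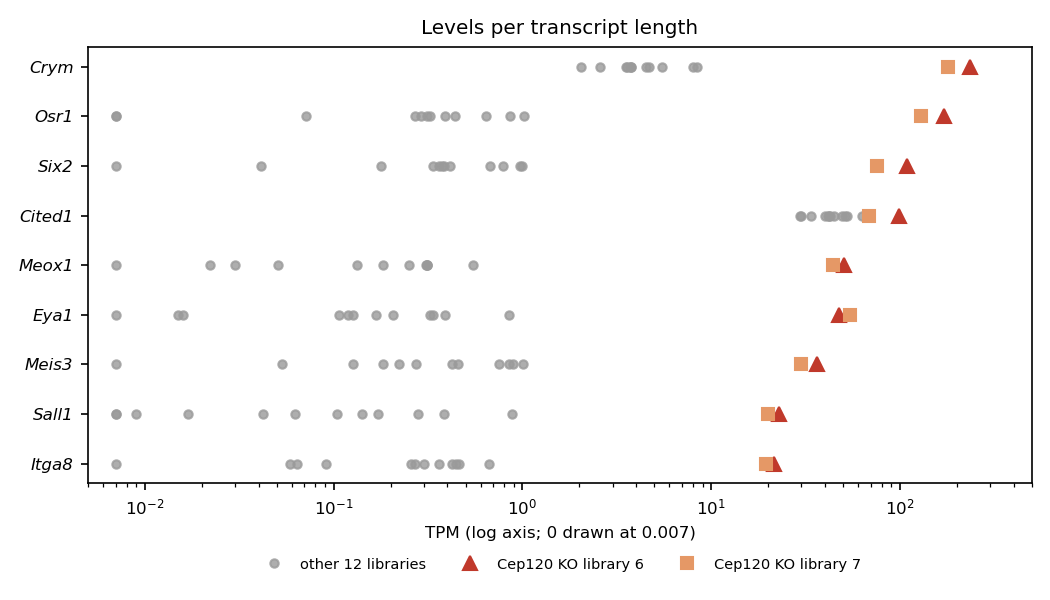
Deposited TPM (log axis) of each nephron progenitor gene, ordered by its level in library 6 labelled Cep120 KO, with grey points for the other 12 libraries (values of 0 drawn at 0.007). For 7 genes the grey points end at 1.02 TPM or lower, for Crym they end at 8.45 TPM, and for Cited1 they reach 62.6 TPM, next to library 7 at 68.6 TPM.

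The transcript table shows which isoforms carried the reads. Six2-202, a protein-coding transcript, took 97.0% of Six2 reads in library 6 and 96.4% in library 7. Crym-201, Osr1-201 and Cited1-201 took 94.2 to 99.6% of the reads of their genes in these libraries, and Sall1-201 and Meox1-201 took all of them. The share of Cited1-201 was 94.6% in library 6 and 97.9% in control 2 of the Cep120 line, so the same isoform led in both. For Eya1, Itga8 and Meis3 the transcripts analysed here hold only part of the reads of the gene, 50.6, 28.5 and 69.8% in library 6. Among those, the transcripts with most reads in library 6 were annotated as retained introns, Eya1-204, Itga8-204 and Meis3-202. No level of the full isoform set can be given for those 3 genes.

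Taken as a sum, the 8 members other than Cited1 made up 866 CPM in library 6 and 676 CPM in library 7. The other 12 libraries held 6.24 to 24.5 CPM. The highest of these were Pkd1 KO library 2 with 24.5 CPM and control 2 of the Cep120 line with 21.1 CPM, and the lowest was control 1 of the Pkd1 line. In libraries 2, 4 and 5 labelled Cep120 KO the sums were 10.6, 6.56 and 6.69 CPM, inside or below the 8.04 to 21.1 CPM of their controls. The ureteric bud markers moved the other way in libraries 6 and 7, as given above, and their part in the members' values was not tested.

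**Figure D4:**
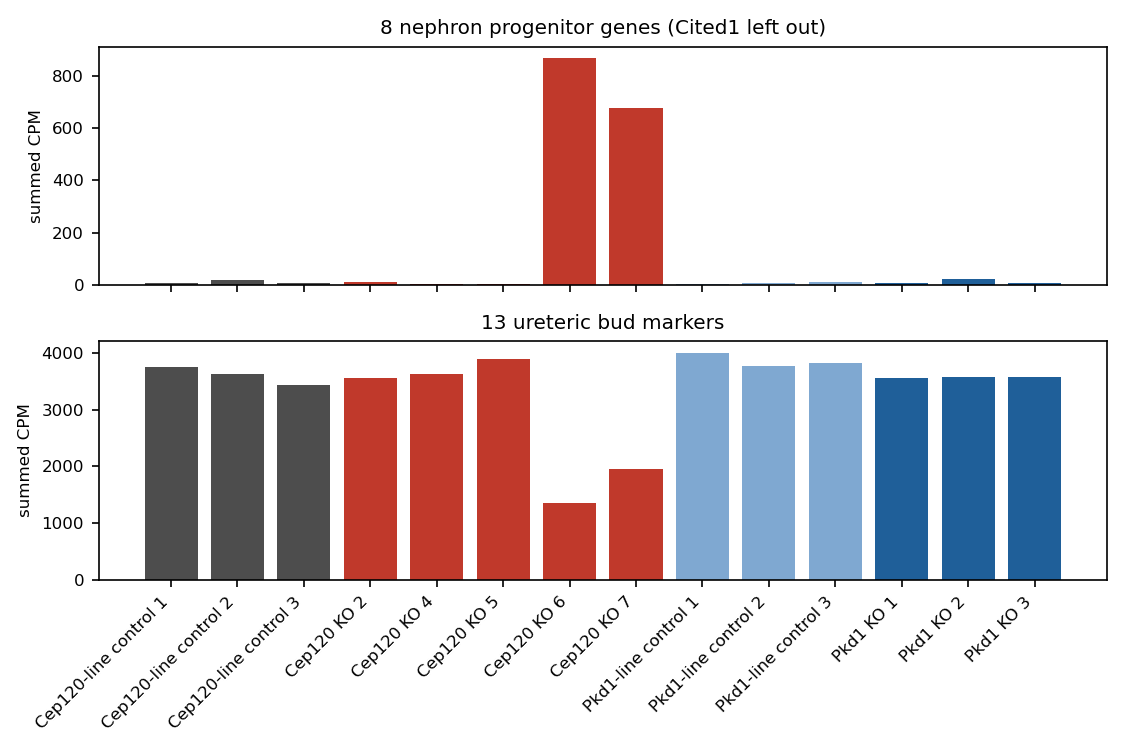
Summed CPM of 8 nephron progenitor genes (all but Cited1, upper bars) and of 13 ureteric bud markers (lower bars) in each library, with bars starting at 0 and coloured by group. Libraries 6 and 7 labelled Cep120 KO have the highest sums of the first set, 866 and 676 CPM, and the lowest of the second, 1356 and 1951 CPM.

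Other genes of the cap mesenchyme were read from a list of 15. Of the 11 tested, 3 were called higher and 0 lower (edgeR) against the 8.4% of all genes called higher: Ncam1, Spock2 and Pax2. Ncam1, a cell adhesion molecule of the condensing mesenchyme, read 32.1, 50.7 and 34.2 CPM in the controls and 25.7, 207, 209, 304 and 269 CPM in libraries 2, 4, 5, 6 and 7 labelled Cep120 KO. Ncam1 was thus well above the controls in libraries 4 and 5 too (log2 fold change 2.38, edgeR adjusted p 0.030). Pax2, a paired-box factor that bud and mesenchyme share, read 11.1 to 15.2 CPM in controls and 12.6, 22.8, 27.1, 61.9 and 54.6 CPM in these libraries (1.44, edgeR adjusted p 0.037). Spock2, a matrix proteoglycan gene, read 0.859 to 1.94 CPM in controls, 1.70 to 2.45 CPM in libraries 2, 4 and 5, and 167 and 216 CPM in libraries 6 and 7 (5.65, edgeR adjusted p 0.042). The median log2 fold change of the list was 2.38, against 0.12 over all genes, and -0.18 with libraries 6 and 7 left out. In 12 of the 15 genes, libraries 6 and 7 were above the other 12, against 22.4% of all genes tested. Hoxc11, Rspo1 and Uncx were among those not tested, because too few libraries passed the low-count filter; Uncx, for example, read 15 and 11.7 CPM in libraries 6 and 7 and at most 0.123 CPM elsewhere. Wt1, the zinc-finger factor of cap and podocyte, was not called (6.14, edgeR adjusted p 0.074) and read 92.2 and 62.2 CPM in libraries 6 and 7 against at most 1.90 CPM elsewhere. Uncx and Wt1 were chosen after their values were seen. Without libraries 6 and 7, 0 of 11 genes were called higher and 1 lower, Tmem100. That fit called 5.48% of all genes in either direction.

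Signals that pass between bud and cap were read from a list of 17, all tested. Here 1 gene was called higher, the receptor gene Fgfr1, and 0 lower, against the 8.4% of all genes called higher. Fgfr1 read 25.6, 22.5 and 21.3 CPM in the controls and 23.4, 43.0, 43.6, 214 and 142 CPM in libraries 2, 4, 5, 6 and 7 labelled Cep120 KO (log2 fold change 2.01, edgeR adjusted p 0.039). The median log2 fold change of the list was 0.32. Libraries 6 and 7 were above the other 12 in 7 of its genes, against 22.4% of all genes tested, and below them in 5. The share of all genes below was not counted. Gdnf, the ligand that cap cells release, chosen after its values were seen, read 21.5 and 18.0 CPM in libraries 6 and 7 and at most 1.04 CPM elsewhere (4.73, edgeR adjusted p 0.134). Without libraries 6 and 7, 1 of 17 genes was called higher, Itgb1, in a fit that called 5.48% of all genes in either direction.

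Nascent nephron genes, which switch on as progenitors become epithelium, gave 2 called higher and 0 lower of 9 tested in a list of 10. Of all genes tested, 8.4% were called higher. Wnt4, the signal that drives this change, read 0.999, 1.56 and 1.53 CPM in controls and 0.721, 6.45, 5.83, 41.7 and 31.1 CPM in libraries 2, 4, 5, 6 and 7 labelled Cep120 KO (log2 fold change 3.65, edgeR adjusted p 0.032). Hey1, a Notch target, read 2.33 to 3.0 CPM in controls, 3.41 to 5.97 CPM in libraries 2, 4 and 5, and 29.7 and 28.0 CPM in libraries 6 and 7 (2.43, edgeR adjusted p 0.040). Both were thus highest in the libraries where the progenitor genes were. Libraries 6 and 7 were above the other 12 in 7 of the 10 genes, against 22.4% of all genes tested, and below them in 1. That gene was Jag1, at 11.8 and 9.42 CPM in libraries 6 and 7 and 36.5 to 227 CPM elsewhere. Jag1 was chosen after its values were seen, and the share of all genes below was not counted. The list's median was 1.50, and without libraries 6 and 7 it was 0.16. The fit without them called 0 of the list's 9 tested genes and 5.48% of all genes. Of 5 podocyte genes, 4 were tested, in a comparison that called 14.7% of all genes in either direction. Of these 4, 1 was called lower, Nphs1, the gene of nephrin. It read 30.3 to 39.0 CPM in the controls, 37.2 CPM in library 2 and 11.3 to 12.9 CPM in libraries 4, 5, 6 and 7 (-1.06, edgeR adjusted p 0.049; the call was lost without libraries 6 and 7, with 0.146). Of the list genes called, Ncam1, Pax2, Spock2, Fgfr1, Wnt4 and Hey1 each kept the edgeR call in 3 of 8 fits that left out 1 library, those without library 2, 4 or 5, and Nphs1 in 1 of 8. The fits without library 6, library 7 or a control called few genes of any kind, as given for Six2.

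Markers of cells outside the ureteric lineage were checked in the same libraries. In the Cep120 comparison edgeR called 8.4% of all genes tested higher and 14.7% in either direction. Without libraries 6 and 7 it called 5.48% in either direction. No one of 12 stromal genes was called in the Cep120 comparison; the one with the smallest p was Meis2, at 3.54, 5.01, 4.39, 157 and 127 CPM in libraries 2, 4, 5, 6 and 7 labelled Cep120 KO and 1.12 to 6.49 CPM in controls (3.86, edgeR adjusted p 0.064). The summed stromal level was 315 and 294 CPM in libraries 6 and 7 and 7.67 to 92.8 CPM in the other 12, with Foxd1, a defining stromal gene, at 4.80 and 3.15 CPM and at most 0.587 CPM elsewhere. Most of that sum was Meis1 (63.9 and 55.5 CPM) and Meis2. In both libraries 5 of the 12 stromal genes were above the other 12 libraries, against 22.4% of all genes tested. Matrix and receptor genes of stroma were among the other 7: Lum read 0.0717 and 0.987 CPM (at most 6.04 CPM elsewhere), Dcn 3.12 and 4.52 CPM (at most 10.0 CPM) and Pdgfra 1.29 and 1.85 CPM (at most 2.35 CPM). The remaining stromal genes had log2 fold changes above 0 over all 5 libraries, none of them called. They were Col1a1 (1.09), Col1a2 (0.50), Col3a1 (0.75), Postn (1.36), Pdgfrb (0.78) and Tcf21 (1.07). Stromal genes other than Meis2 were named after their values were seen. Of 13 ureteric bud genes 0 were called and 9 were lower in libraries 6 and 7 than in any other library. The share of all genes lower in this way was not counted, so the 9 have no background beside them. Calb1 was at 400 and 696 CPM against 874 to 1939 CPM elsewhere (-0.84, edgeR adjusted p 0.094). Endothelial genes (0 of 8 called, smallest p for Cdh5) summed to 13.8 CPM in library 6 and 58.4 CPM in library 7, the latter the highest of all. Erythroid genes (0 of 8) summed to 1089 and 721 CPM there, to 493 to 7177 CPM in the Cep120-line controls and to 5.24, 119 and 135 CPM in libraries 2, 4 and 5 labelled Cep120 KO. In the fit without libraries 6 and 7, where Cited1 was called lower, so were the haemoglobin gene Hbb-bt, with a median of -5.48 over the erythroid list, and the macrophage gene C1qb; the part of these cells in the Cited1 value was not tested. Macrophage genes (0 of 6, Ptprc) summed to 18.5 and 17.4 CPM, inside the 3.61 to 35.2 CPM of the rest. Of 6 neural genes 3 were tested and 0 called (Tubb3). In libraries 6 and 7, 1 of the 6 was above the other 12 libraries, against 22.4% of all genes tested, and 1 below. Sox10, chosen after its values were seen, had 0 reads in both libraries. Of 6 cartilage genes 5 were tested and 1 called higher, Col2a1, at 2.05 to 3.0 CPM in controls and 4.13, 11.1, 13, 71.1 and 91.8 CPM in libraries 2, 4, 5, 6 and 7 labelled Cep120 KO (3.97, edgeR adjusted p 0.029), which was still called without libraries 6 and 7 (1.95, edgeR adjusted p 0.040). In libraries 6 and 7 the stromal sum was thus higher and the ureteric sum lower where the members were high, and their part in the members' result was not tested.

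**Figure D5:**
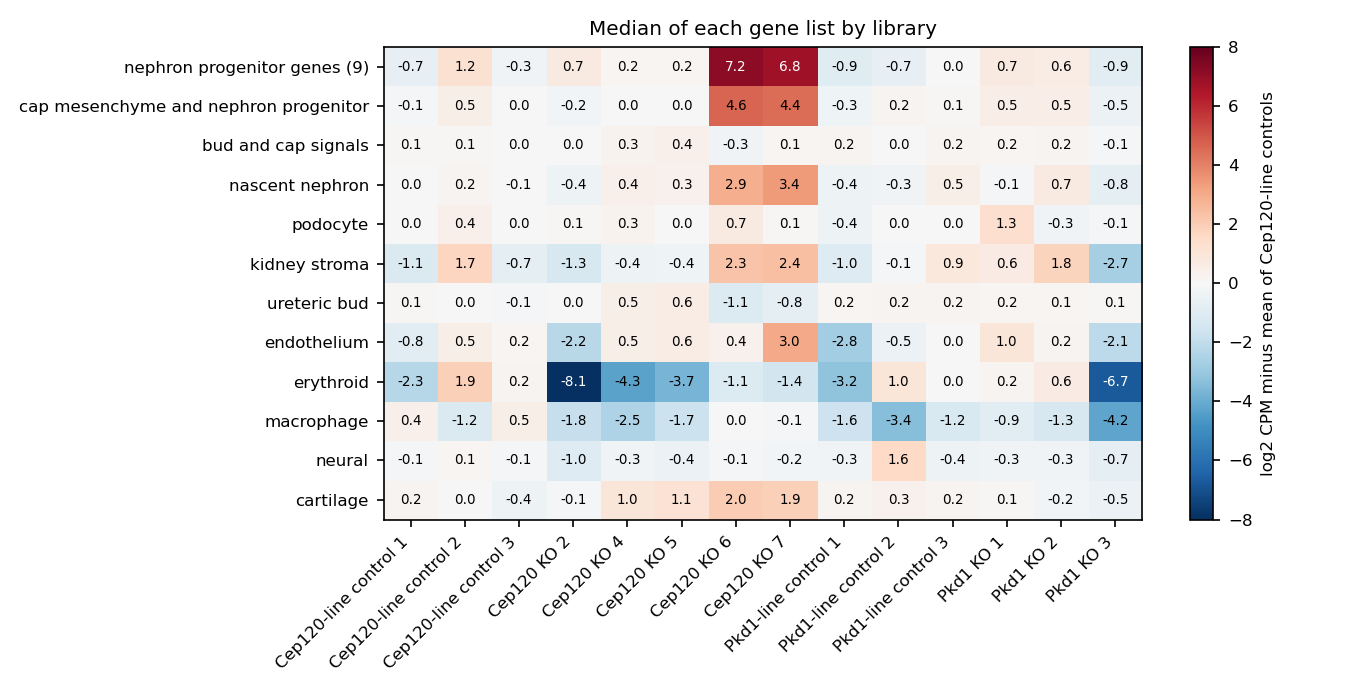
Median over each gene list (rows) in each library (columns) of log2 CPM minus the mean of the 3 Cep120-line controls, in colour and as numbers. The nephron progenitor genes stand at 7.18 and 6.79 in libraries 6 and 7 labelled Cep120 KO, the cap mesenchyme list at 4.64 and 4.44, the nascent nephron list at 2.93 and 3.39, the stromal list at 2.30 and 2.38 and the ureteric bud list at -1.12 and -0.81.

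The genes whose profile over the 14 libraries was most like that of Six2 were sought among 9432 protein-coding genes. These had a mean of at least 5 CPM over all 14 libraries, and members, predicted genes and Y-linked genes were left out. Likeness is the root mean square (RMS) difference of log2 CPM after centring each gene, so a small value means a like profile. The 6 closest outside the set were Actn3 (RMS 1.10), Des (1.16), Sncaip (1.18), Hoxa9 (1.19), Spock2 (1.26) and Meis2 (1.31). Actn3, Des, Sncaip and Hoxa9 were under 5 CPM in every library but 6 and 7. They thus reached the required mean only through the libraries where Six2 is high. Actn3, an alpha-actinin gene, read 40.9 and 33.3 CPM in libraries 6 and 7 and at most 0.587 CPM elsewhere. Des, the gene of the intermediate filament desmin, read 224 and 198 CPM there and at most 1.14 CPM elsewhere, and Hoxa9, a homeobox gene of the posterior body, 101 and 76.6 CPM and at most 0.912 CPM. Among the members the closest to Six2 was Meox1 (1.27), then Itga8 (1.38), Crym (1.59), Osr1 (1.63), Eya1 (1.70), Sall1 (1.73) and Meis3 (1.74). Cited1 was far off at 2.75, at rank 3661 of the 9432. Libraries 6 and 7 dominate this measure, which is a description over libraries that share their depth and scaling.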

How the data were processed

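The authors deposited estimated counts of reads per gene, without normalization, and TPM values per gene; a table of estimated counts per transcript came with them. Per the labels' protocols, cDNA of GFP-sorted ureteric bud cells was made with the SMARTer Ultra Low RNA kit. The submitters' processing notes name DRAGEN and mm9, with no role or version; which program counted reads, and on which annotation, is not given in the sources used here. Between 88.4 and 91.6% of count values were whole, and all were rounded. Of 55774 lines, 287 that repeated a gene were dropped. Total counts per library are given with the results.

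Members and lists were chosen with earlier results of these data known. Gene positions are from GENCODE M21 (GRCm38) by Ensembl identifier, a different build from the one in the notes. Tests used edgeR 4.0.16 in R 4.3.3: filterByExpr at a minimum count of 10 (16876 genes, all 9 members, each past 0.465 CPM in at least 4 libraries other than Cep120 KO 6 and 7), TMM scaling, 4 group means over 14 libraries and 10 residual degrees of freedom. Standard errors of the edgeR fold changes were worked back from the test, as the absolute log2 fold change over the square root of its F statistic. The threshold for a call was 0.05 after Benjamini-Hochberg adjustment. On simulated counts with 200 of 16876 genes changed, 99.3% of the 137 changed genes with a mean of at least 50 reads were recovered in the Cep120 comparison, with 6 false calls. These figures do not cover most members. Recovery of genes high only in libraries 6 and 7 labelled Cep120 KO, as most members were, was not tested. No recovery is given for genes under 50 reads, where most members lay in the other libraries. Genes named are the 9 members, both targeted genes, up to 4 called genes of each of 11 lists (or the one with the smallest p), the 6 genes most like Six2, and others where stated. A few genes of the lists are not reported here by name. Log2 levels in list medians use a prior count of 2. Alternatives were RLE scaling, no low-count filter, DESeq2 1.42.0, limma 3.58.1 with voom and quality weights, separate fits, a replicate block for the Pkd1 line, each library left out, and, added after seeing the data, libraries 6 and 7 or 4 and 5 left out. Libraries 4 and 5 differed by more than sampling noise (a chi-square per gene of 4.55, against 12.7 to 415 for other pairs within a group) and were kept as separate samples. The deposited normalized and comparison tables were not used.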

Additional observations from a re-analysis of the deposited data

How the results depend on the processing

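For the Cep120 comparison edgeR called 2475 genes. DESeq2 called 4199, limma-voom 6665, a separate fit of the 8 libraries 0, the fit without libraries 6 and 7 924, and fits leaving out 1 library from 2 to 5723. Of the 9 members 2 were called higher, against 6 with no filter (7.15% of all genes called), 7 with DESeq2 (24.9%), 0 in the separate fit, 7 without libraries 4 and 5 (12%), 1 (Cited1, lower) without libraries 6 and 7, and 0 to 6 on leaving out 1 library. Limma-voom called 2, Crym and Cited1, both lower. For the Pkd1 comparison 0 genes were called by edgeR, 3 by DESeq2, 1 by limma-voom and 3 in the separate fit. Same-numbered Pkd1-line libraries did not deviate together (correlations -0.05, -0.03 and -0.12). With 3 libraries per group this cannot exclude a pairing, and none was assumed in the main test. With the replicate block 1 gene was called and 0 members. In the Cep120 line the groups share only number 2, and no block was fitted. Among libraries labelled Cep120 KO, library 2, libraries 4 and 5, and libraries 6 and 7 stand apart from one another, as given above. For the difference between effects 0 genes were called, against 1 with no filter, 723 by DESeq2, 4383 by limma-voom, 4 without libraries 6 and 7, 1 without libraries 4 and 5 and 0 to 3126 on leaving out 1 library; for members the counts were 0 in the main test, 1 by DESeq2, 2 by limma-voom and 0 to 1 on leaving out 1 library.

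These log2 fold changes turned sign, and the cause was not tested. In the Cep120 comparison, limma-voom gave Osr1 -1.07, Crym -1.70, Sall1 -0.52 and Actn3 -0.13, and the fit without libraries 6 and 7 gave Osr1 -1.97, Crym -1.43, Sall1 -1.15 and Actn3 -0.28. In the Pkd1 comparison, fits leaving out 1 library ranged from -0.079 to 3.44 for Eya1, -0.27 to 1.82 for Meox1, -0.56 to 1.51 for Itga8, -0.31 to 5.31 for Sall1 and -0.67 to 2.71 for Meis3, with the negative end at KO library 2 left out for the first 4 and at control 1 left out for Meis3. Meis3 there was 0.076 without KO library 2, 1.00 by limma-voom and 1.20 with the replicate block. In the difference, limma-voom gave Osr1 -3.87, Eya1 -0.96, Meox1 -1.50, Crym -2.24 and Sall1 -3.31. Without libraries 6 and 7 it was -3.68 for Osr1, -2.17 for Eya1, -0.39 for Meox1, -2.01 for Crym, -0.19 for Itga8 and -3.06 for Sall1. Sall1 there ranged from -0.39 (Pkd1-line control 3 left out) to 5.23 on leaving out 1 library. Of the other values of named genes, 549 kept direction and side of the threshold, 43 moved past it and 100 lost it. Depth limits the members in 12 libraries, where most levels rest on under 50 reads and counting error is large.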

Other observations

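Over the 12 libraries other than 6 and 7, the summed level of the 8 members without Cited1 was highest in Pkd1 KO library 2 (24.5 CPM) and control 2 of the Cep120 line (21.1 CPM). The summed stromal level was also highest there, at 90.2 and 92.8 CPM against 7.67 to 54.8 CPM in the other 10. These values are given as a description, and their relation was not tested.

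In the Cep120 comparison, Col2a1, a cartilage collagen gene, kept the edgeR call with libraries 6 and 7 left out (log2 fold change 1.95, edgeR adjusted p 0.040). It was also called with libraries 4 and 5 left out (4.52, edgeR adjusted p 0.034). These fits called 5.48% and 12% of all genes tested. Of the 8 fits that left out 1 library, 3 called Col2a1. That number was the same for Six2, Meis3, Ncam1, Pax2, Spock2, Fgfr1, Wnt4 and Hey1, among others. Sox9, which bud and cartilage share, read 20.6 CPM in library 6 and 101 CPM in library 7, against 62.7 to 130 CPM elsewhere; it was chosen after its values were seen.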
